A study of Bos indicus x Bos taurus with 17 samples.

Results

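Glycolysis splits glucose into pyruvate in a fixed series of steps, and several of these steps can be run by more than 1 enzyme, each from its own gene. The genes described here are 8 such isoform genes, picked out of the tables by symbol, with no measured value in that rule: the hexokinases HK1 and HK2, the phosphofructokinases PFKM and PFKL, the aldolase ALDOA, the enolase ENO3, and the pyruvate kinases PKM and PKLR. The genes were nonetheless chosen with earlier results of these data known. All 8 were found on a single line each among the 21048 genes listed in the count tables of liver and skeletal muscle. All 8 also passed the filter on low values in the comparison of tissues.

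Gene expression was measured by RNA-seq in 12 libraries from 6 bovine fetuses at about day 105 of gestation, 1 liver and 1 muscle library from each fetus. All were F1 crosses of Bos indicus (Nelore) and Bos taurus (Holstein). Of the 6, 4 were conceived by assisted reproductive technologies and labelled healthy (ART-Normal 1 to 4). The other 2 came from artificial insemination (Control-AI 2 and Control-AI 4), the only conception controls used here. The study describes its ART-Normal group as near the controls in weight, but ART-Normal 4 is not among the fetuses whose weights it lists. The samples were whole pieces of tissue, and total gene counts ranged from 12433300 to 43339598 per library.

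In adult mammals the isoforms divide between organs. Skeletal muscle relies on hexokinase 2, the muscle phosphofructokinase PFKM, aldolase A, the beta enolase ENO3 and a product of PKM, all suited to running glucose down to pyruvate for contraction. Liver, which also runs the pathway backwards to release glucose, relies on the liver phosphofructokinase PFKL, the alpha enolase ENO1 and the liver and red cell pyruvate kinase PKLR.

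The positions on the ARS-UCD1.2 assembly were as follows. PFKL lies at chr1:144308777-144335971 and PKLR at chr3:15344765-15354042, both on the plus strand. PFKM lies at chr5:32145678-32189038, PKM at chr10:19137913-19164576, HK2 at chr11:9741445-9810551, ENO3 at chr19:26439577-26446869 and ALDOA at chr25:26212564-26225472, all on the minus strand. HK1 occupies chr28:25636401-25768161 on the plus strand. HK1 alone among the 8 overlaps another listed gene, TACR2, which covers 5614 bp of its 3′ end on the opposite strand, and its neighbour HKDC1 lies 1440 bp away on the same strand. Each gene was counted over its whole span with all transcripts together, so splice forms, such as the M1 and M2 forms of PKM or the liver and red cell forms of PKLR, are summed.

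The tissues carried their own markers. The summed level of 10 hepatocyte markers was 39800 to 361800 CPM (counts scaled to a common library size) in liver and 25.5 to 402.8 in muscle, and that of 10 skeletal muscle markers was 16690 to 26730 in muscle and 7.29 to 36.6 in liver. Of the 10 hepatocyte markers, 7 reached 5 CPM in at least 1 muscle library, and 4 of the 10 muscle markers did so in liver. Liver also held red cell precursors: 10 of 10 erythroid markers reached 5 CPM there, with a summed level of 6660 to 7669 CPM against 8.004 to 19.3 in muscle, where 1 did. Connective tissue markers summed to 20660 to 26960 CPM in muscle and 557.7 to 1179 in liver. Macrophage markers summed to 64.1 to 96.8 CPM in muscle and 356.5 to 521.9 in liver. The part of these cells in the levels of the 8 genes was not tested. Control-AI 2 stood apart from the other fetuses. For genes whose opposite strand holds a gene 16-fold or more above them, its level was divided by that of the other libraries. The median log2 value was 1.15 in muscle and 0.86 in liver, against -0.058 to 0.00 for the other fetuses. Its hepatocyte marker sum was the highest in both tissues (361800 CPM in liver, 402.8 in muscle, where the other libraries reached 71370 and 67.0). Not every marker was raised. In its liver AHSG, ALB, SERPINA1, AFP, TF and FGB were the highest, while TTR, APOA1, APOB and HNF4A lay within the range of the other livers. In its muscle APOA1 and HNF4A were not the highest, and the other markers were.

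Muscle and liver differed in all 8 genes. HK2, PFKM, ALDOA, ENO3 and PKM were higher in muscle, and HK1, PFKL and PKLR were higher in liver, each with an edgeR adjusted p at or under 0.05. Across all 12923 genes tested, 81.3% passed the same threshold, 40.7% higher in muscle and 40.6% higher in liver, so a call alone says little here and the sizes are the result. Of the 8 genes, 5 were at least 4-fold higher in muscle and 3 at least 4-fold higher in liver, against 13.9% and 12.4% of all genes tested. The 8 were chosen with earlier results of these data known, so this contrast is a description and not a test. All 8 calls were kept without Control-AI 2. These levels come from whole tissue, where fewer cells of a type and less RNA per cell cannot be told apart. In the plot of levels by library the points of muscle and liver stay apart for every gene.

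**Figure D1:**
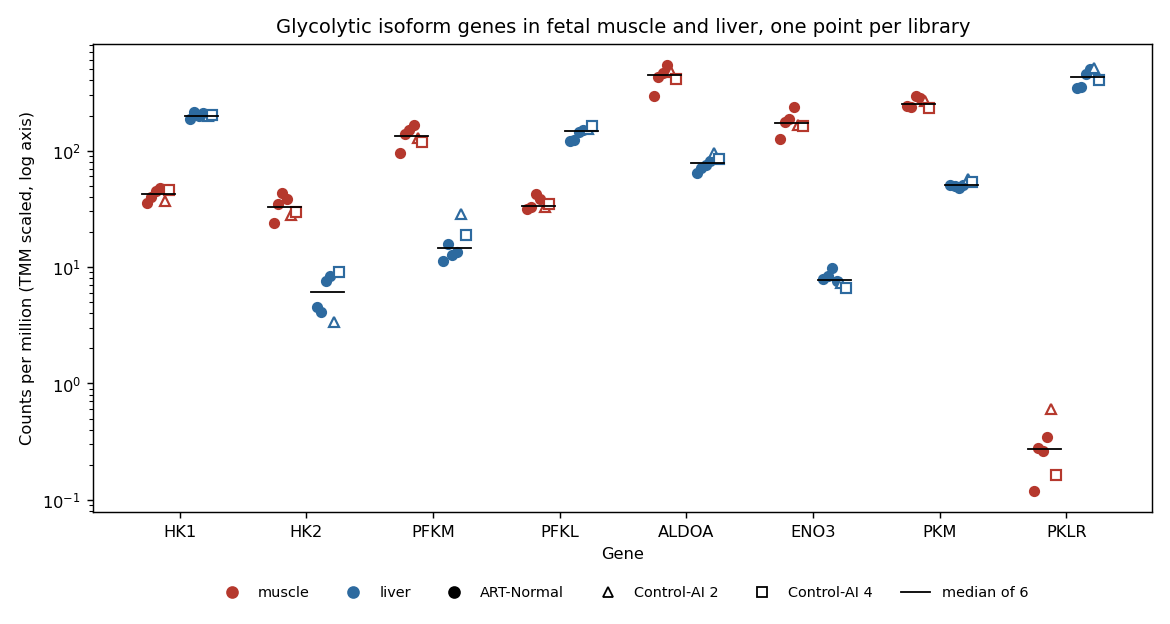
Level of each of the 8 genes in CPM (log axis) in the 6 muscle (red) and 6 liver (blue) libraries; filled points are ART-Normal, the open triangle is Control-AI 2, the open square Control-AI 4, and the line is the median of 6. No muscle library overlaps a liver library for any gene, and PKLR shows the widest gap, from at most 0.606 CPM in muscle to at least 346.8 in liver.

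The hexokinases trap glucose in the cell as glucose 6-phosphate, the entry step. HK1, the form found in most tissues, measured 35.4 to 47.4 CPM in muscle (median 42.3) and 188.5 to 216.6 in liver (median 199.8). It was 4.84-fold higher in liver (log2 fold change muscle over liver -2.27, SE 0.089, edgeR adjusted p = 1.61e-11). HK2, the insulin-responsive form of muscle and fat, measured 23.9 to 42.9 CPM in muscle (median 32.5) and 3.40 to 9.13 in liver (median 6.04). It was 5.28-fold higher in muscle (log2 2.40, SE 0.25, edgeR adjusted p = 5.83e-07). HK1 varied little between fetuses within liver (coefficient of variation 4.79%), while HK2 there had one of 39.8%, on counts of 47 to 249 per library. In the liver of Control-AI 2 TACR2 read 38.0 CPM scaled by library size alone, against 1.29 CPM in the lowest liver library. In the same liver HK1 read 198.9 CPM with TMM scaling, within the range of the other 5. By library size alone (2752 of 18454088 counts) HK1 there lay below the other 5. The TMM factor of this library was 0.755. HK1 is a hexokinase of red cells too, and the erythroid marker sums given above were higher in the same tissue as HK1; their part in the difference was not tested.

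These hexokinase genes took different shares of counts in each tissue. Of the counts that fell on HK1, HK2, HK3 and HKDC1 together, HK1 took 54.0% ± 3.02 (SD, n = 6) in muscle and 69.1% ± 4.37 in liver. HK2 took 42.2% ± 3.91 in muscle and 2.15% ± 0.908 in liver. In liver the next largest share belonged to HKDC1, a hexokinase domain gene beside HK1, with 26.1% ± 5.19 and 45.7 to 95.1 CPM, whereas in muscle HKDC1 had 0 counts in 5 libraries and 1 count in the other. These are shares of counts and not of molecules, since longer transcripts give more counts, and they are given to compare the tissues and not the genes.

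**Figure D2:**
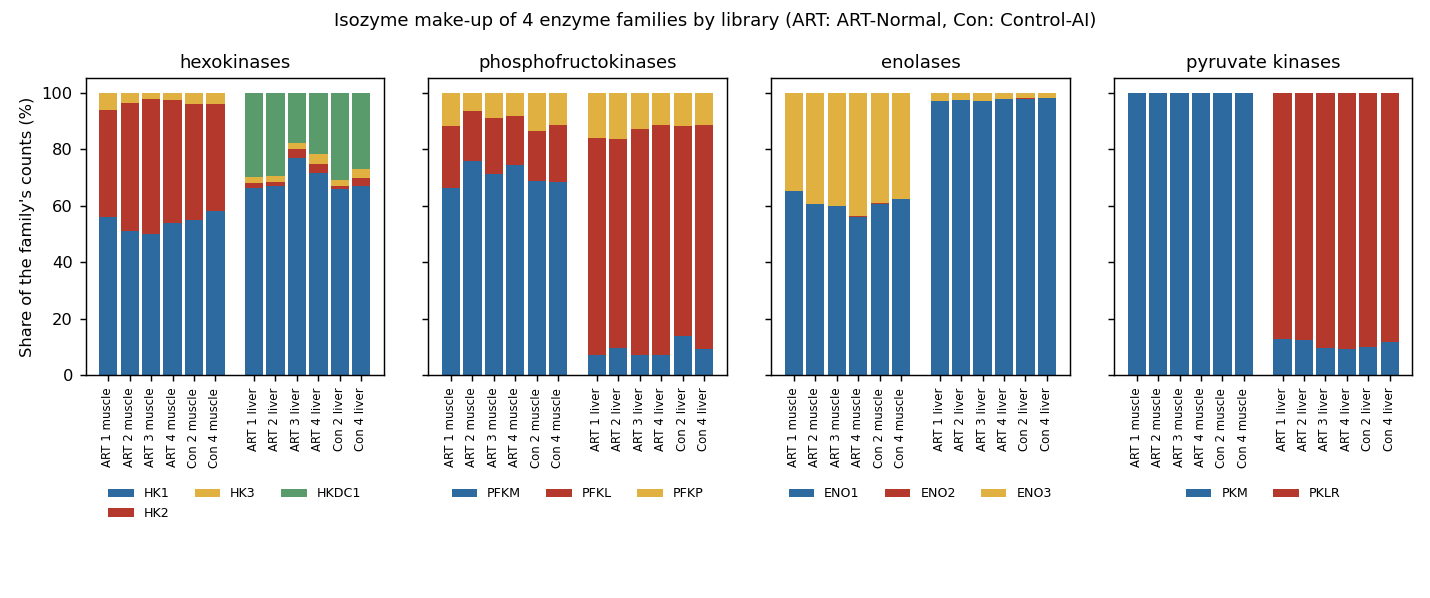
Share (%) of each family's counts that fell on each isozyme, 1 bar per library, muscle on the left and liver on the right of each panel. The 6 bars of a tissue resemble each other more than those of the other tissue in each of the 4 families shown: PFKM takes 66.1 to 75.7% in muscle and 6.99 to 13.7% in liver, and PKLR 0.050 to 0.228% in muscle and 87.2 to 90.8% in liver.

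Phosphofructokinase commits the sugar to glycolysis. PFKM, its muscle subunit, read 95.1, 137.8, 151.7 and 165.1 CPM in the muscle of ART-Normal 1 to 4, 127.3 in Control-AI 2 and 118.6 in Control-AI 4. In liver the same fetuses read 11.3, 15.9, 12.6 and 13.3 CPM (ART-Normal 1 to 4), 28.4 (Control-AI 2) and 18.9 (Control-AI 4). The lowest muscle library was more than 3 times the highest liver library, and the fitted difference was 8.22-fold (log2 3.04, SE 0.203, edgeR adjusted p = 4.51e-09). PFKL, the liver subunit, ran the other way, at 31.6 to 42.4 CPM in muscle (median 33.7) and 122.0 to 163.9 in liver (median 147.8). Its difference of 4.04-fold (log2 -2.01, SE 0.104, edgeR adjusted p = 2.54e-10) lay at the 4-fold mark and fell below it without Control-AI 2, without Control-AI 4 or with scaling by library size alone, in each case still with an adjusted p at or under 0.05.

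PFKP, the third phosphofructokinase, was 11.7 to 25.1 CPM in muscle and 21.3 to 27.3 in liver, with overlapping libraries. PFKM, PFKL and PFKP took 70.8% ± 3.72, 19.1% ± 1.84 and 10.1% ± 2.67 of the family's counts in muscle (SD, n = 6), and 8.95% ± 2.59, 77.7% ± 3.02 and 13.4% ± 2.21 in liver. The family as a whole summed to 186.5 ± 28.1 CPM in muscle and 184.3 ± 19.9 in liver. These 2 summed levels lay within each other's spread. Like the other sums below, they add counts with no division by length and rest on the TMM scaling. As the isozymes differ between tissues, they do not compare numbers of transcripts. The hexokinases HK1, HK2, HK3 and HKDC1 summed to 77.5 ± 10.7 CPM in muscle and 292.7 ± 22.2 in liver, the pyruvate kinases to 258.4 ± 25.9 and 480.3 ± 72.4, and the enolases to 446.2 ± 59.4 and 326.6 ± 30.7 (SD, n = 6, with no test).

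Aldolase splits the phosphorylated sugar into its 3-carbon parts. ALDOA, the form of muscle and of most fetal tissues, read 293.6 to 540.6 CPM in muscle (median 446.5) and 63.97 to 94.8 in liver (median 78.3). It was 5.57-fold higher in muscle (log2 2.48, SE 0.14, edgeR adjusted p = 7.09e-10). ALDOC, the brain form, was 1.39 to 3.60 CPM in muscle and 6.32 to 9.52 in liver, with no overlap between the tissues.

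Enolase makes phosphoenolpyruvate, the substrate of the last step. ENO3, the muscle enolase, read 125.6, 176.5, 185.1 and 239.1 CPM in the 4 ART-Normal muscles (1 to 4) and 167.2 and 163.0 in those of Control-AI 2 and 4. In liver it lay at 6.62 to 9.78 CPM (median 7.73). The difference of 22.3-fold was the largest among the 5 genes higher in muscle (log2 4.48, SE 0.149, edgeR adjusted p = 3.04e-12). ENO1, the general enolase, was close in level between tissues, with 236.5 to 306.1 CPM in muscle and 273.1 to 360.1 in liver (log2 -0.24, SE 0.09, edgeR adjusted p = 0.0271, and 0.436 with scaling by library size alone). The ENO1 call was also lost without Control-AI 2 (edgeR adjusted p = 0.109) and, at 0.0537 to 0.0555, without ART-Normal 2, ART-Normal 3 or Control-AI 4. ENO3 took 39.1% ± 3.02 of the enolase counts in fetal muscle and 2.45% ± 0.488 in liver (SD, n = 6), so that ENO1 held the larger share of counts in both tissues. ENO2, the neuronal enolase, had at most 11 counts in any library.

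Pyruvate kinase closes the pathway. PKM read 232.2 to 293.6 CPM in muscle (median 252.2) and 48.1 to 56.6 in liver (median 50.7), 5.004-fold higher in muscle (log2 2.32, SE 0.085, edgeR adjusted p = 7.82e-12). PKLR read 346.8, 353.2, 456.0 and 499.3 CPM in the liver of ART-Normal 1 to 4, 510.6 in Control-AI 2 and 406.0 in Control-AI 4. In muscle it had 3, 5, 6 and 7 counts in ART-Normal 1 to 4, 8 in Control-AI 2 and 4 in Control-AI 4, or 0.119 to 0.606 CPM. The fitted difference was log2 -10.6 (SE 0.241, edgeR adjusted p = 1.56e-13), and its size depends on these few muscle counts. The muscle library with the highest PKLR level, Control-AI 2, was also the one with the highest hepatocyte marker sum (402.8 CPM against 25.5 to 67.0), and the part of that in its PKLR counts was not tested. PKLR took 89.1% ± 1.54 of the pyruvate kinase counts in liver and 0.113% ± 0.063 in muscle (SD, n = 6). The PKLR gene also makes the pyruvate kinase of red cells, and the erythroid markers were high in every liver library and low in every muscle library; their part in its level was not tested.

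The balance between isoforms can be followed within each fetus by the log2 ratio of counts of 2 genes. This ratio needs no scaling between libraries, apart from the 0.5 added to each count, which matters where counts are few. Once tissues are subtracted, gene length cancels if each gene uses the same transcripts in both, which was not tested. The ratio of PFKM to PFKL rose from -3.51 to -2.43 in liver to 1.59 to 2.11 in muscle, a mean within-fetus difference of 5.05 ± 0.413 (SD, n = 6 fetuses), or 33.2-fold. That of HK2 to HK1 rose from -5.86 to -4.46 in liver to -0.61 to -0.07 in muscle, by 4.76 ± 0.647, or 27.2-fold. This ratio of counts stayed under 0 in every library and came closest to 0 in the muscle of an ART-Normal fetus. That of ENO3 to ENO1 rose from -5.68 to -4.95 in liver to -0.91 to -0.36 in muscle, by 4.70 ± 0.368. The ratio of PKLR to PKM fell from 2.77 to 3.30 in liver to -10.7 to -8.68 in muscle, a mean difference of -12.9 ± 0.622.

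**Figure D3:**
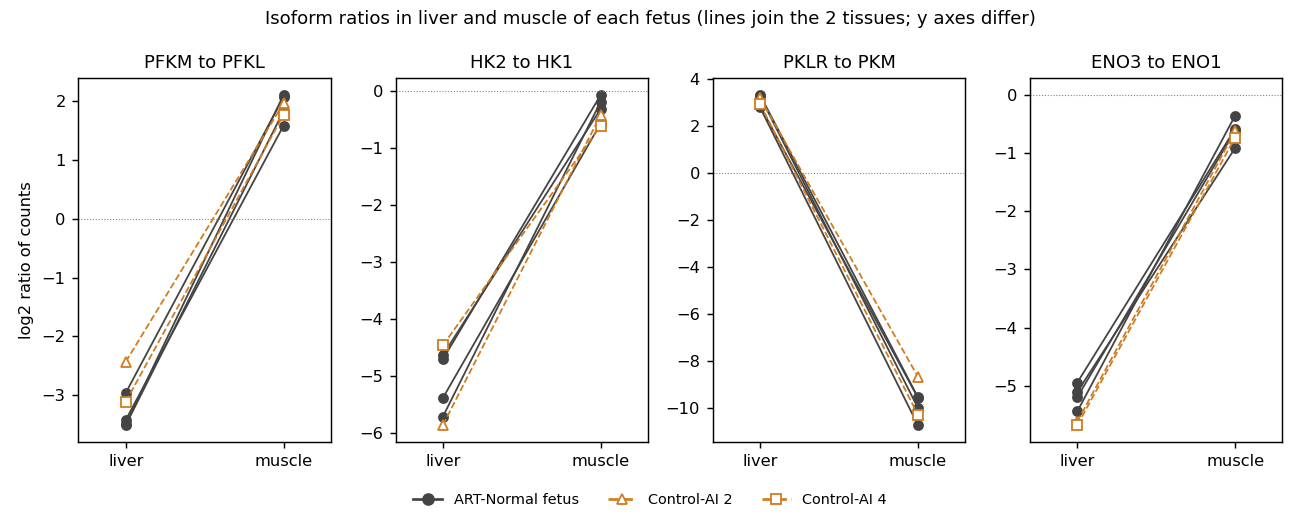
Log2 ratio of counts of 4 isoform pairs in the liver and muscle of each fetus; a line joins the 2 tissues of a fetus, solid for ART-Normal and dashed for Control-AI, and each panel has its own y axis. All 6 lines run the same way in each panel, and the ratios of PFKM to PFKL and PKLR to PKM change sign between tissues.

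All 6 fetuses moved in the same direction in each of the 4 ratios. The exact two-sided permutation test that changes the sign of the within-fetus differences (64 sign patterns) gave p = 0.03125 for each ratio, which is the smallest p that 6 pairs can give, and p = 0.03125 after adjustment over the 4. The ratios, too, were chosen with earlier results of these data known. The spread between fetuses was small beside these differences. The nearest approach was HK2 to HK1, whose smallest within-fetus difference was 3.85. The 4 ART-Normal fetuses alone gave 5.26, 4.82, -13.0 and 4.56 for PFKM to PFKL, HK2 to HK1, PKLR to PKM and ENO3 to ENO1, a set of 4 that cannot reach an exact p below 0.125.

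The fetuses also differed among themselves within a tissue. In muscle ART-Normal 1 had the lowest level of 6 in HK1, HK2, PFKM, PFKL, ALDOA, ENO3 and PKLR, and ART-Normal 4 had the highest in HK1, PFKM, ALDOA and ENO3. ALDOA read 293.6 CPM in ART-Normal 1 and 411.8 to 540.6 in the other 5. The summed level of the 10 skeletal muscle markers was also lowest in ART-Normal 1, at 16690 CPM against 22200 to 26730 in the others, and its part in these levels was not tested. Coefficients of variation in muscle ran from 10.01% (PKM) to 21.4% (HK2) with PKLR at 58.2% on its few counts. In liver they ran from 4.79% (HK1) to 39.8% (HK2), with PFKM next at 37.7%, which was 20.8% without Control-AI 2.

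Outside the 8 genes, the rest of glycolysis held both large and small differences between the tissues. Of 15 other enzymes of the pathway, 14 were tested, 7 were higher in muscle and 6 higher in liver, where 81.3% of all 12923 genes were called. The median log2 fold change was 0.18 over changes in both directions, against -0.006 over all genes. Scaling by library size alone moved the median over all genes to 0.135, and ENO1 and PFKP (log2 -0.41 and, with that scaling, -0.27) then lost their calls. The steps served mainly by a single gene were modestly higher in muscle. GPI, which turns glucose 6-phosphate into fructose 6-phosphate, was 2.15-fold higher (log2 1.11, SE 0.144). TPI1, GAPDH and PGK1, the enzymes around the first energy yield, were 1.69-, 1.51- and 1.57-fold higher, and the lactate dehydrogenases LDHA and LDHB 1.62- and 1.54-fold. Of the phosphoglycerate mutases PGAM2, the muscle form, read 39.3 to 75.4 CPM in muscle and had 0 counts in 5 livers and 13 counts in that of Control-AI 2, while PGAM1, the general form, did not pass the test (log2 -0.37, SE 0.198, edgeR adjusted p = 0.0976), though it did with fetus as a block (edgeR adjusted p = 0.000693), without Control-AI 2 (0.00194) and without Control-AI 4 (0.0011). The fitted log2 fold change of PGAM2, 9.24, rests on those 13 counts (13.5 without that fetus) and is no bound.

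Higher in liver were HK3 (2.70-fold), ALDOC (2.75-fold), HKDC1, PFKP, ENO1 and BPGM. The fitted log2 fold change of HKDC1, -12.5, rests on its 1 muscle count and is no bound. BPGM, which makes the 2,3-bisphosphoglycerate of red cells, measured 43.2 to 117.6 CPM in liver and 0.303 to 2.19 in muscle, 55.7-fold higher in liver (log2 -5.80, SE 0.236, edgeR adjusted p = 2.27e-11). The erythroid markers were high in the same libraries, and their part in it was not tested. Control-AI 2 had the lowest level of 6 in both tissues for PGAM1, BPGM, LDHA and LDHB. LDHA, for example, read 75.4 CPM in its muscle against 140.9 to 209.0 in the other muscles, and 41.2 in its liver against 102.2 to 125.6.

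**Figure D4:**
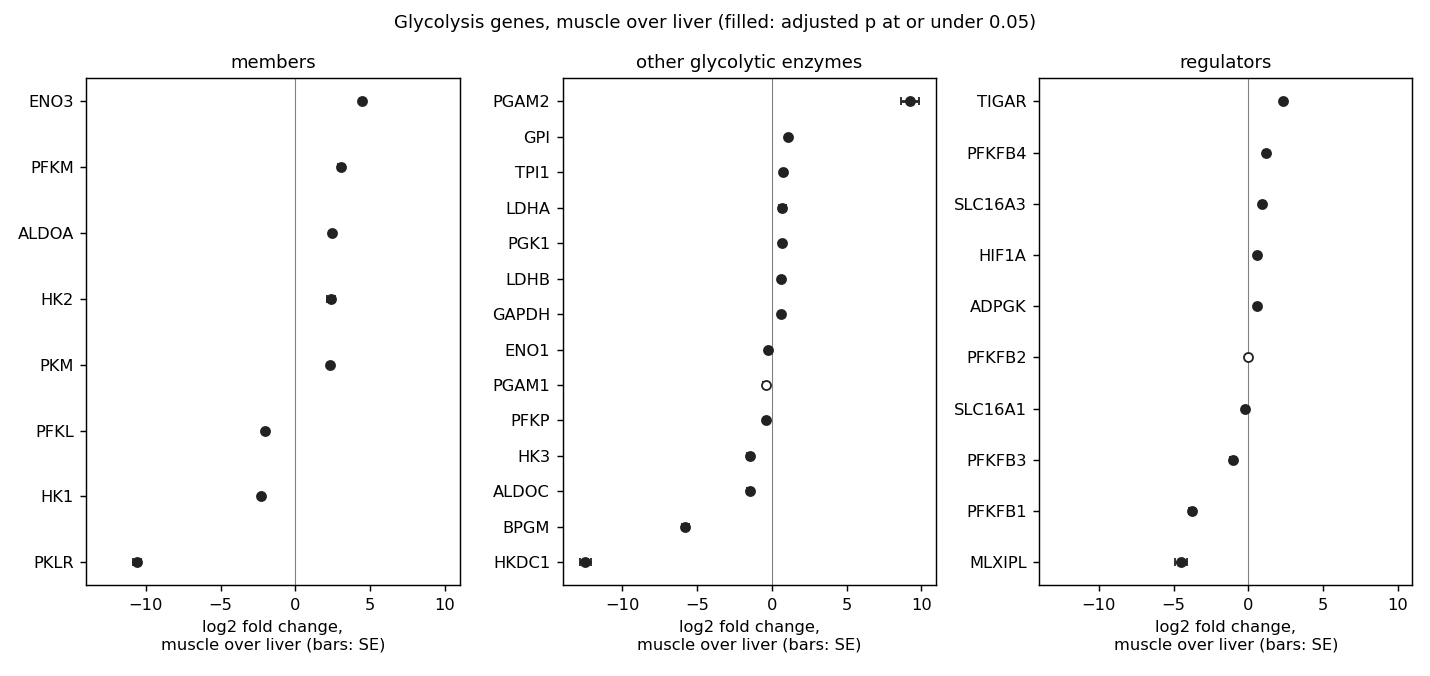
Log2 fold change of muscle over liver (x axis) for the 8 isoform genes, 14 other enzymes and 10 regulators that were tested. Filled points have an adjusted p at or under 0.05. Bars are SE, derived from the test statistic and often smaller than the point. The bars of HKDC1 and PGAM2 rest on few counts in 1 tissue and give no bound. The 8 isoform genes lie at least 2 log2 units from 0, as do PGAM2 (9.24), HKDC1 (-12.5) and BPGM (-5.80) among the other enzymes, while HK3 (-1.44) and ALDOC (-1.46) lie nearer to 0 and the other 9 lie between -0.41 and 1.11.

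Of 11 regulators and transport genes of the pathway, 10 were tested, 5 were higher in muscle and 4 in liver, or 3 without SLC16A1. Their median log2 fold change was 0.29. These calls stand beside 81.3% of all 12923 genes called in the same fit. The bifunctional enzymes PFKFB1 to PFKFB4 set the level of fructose 2,6-bisphosphate, which drives phosphofructokinase. PFKFB1, the liver form, was 103.4 to 193.8 CPM in liver and 7.72 to 14.0 in muscle, 13.7-fold higher in liver (log2 -3.78, SE 0.194, edgeR adjusted p = 2.44e-10). PFKFB3 was 1.99-fold higher in liver, PFKFB4 2.26-fold higher in muscle, and PFKFB2 did not pass the test, with 24.3 ± 2.37 CPM in muscle and 24.3 ± 2.42 in liver (SD, n = 6). MLXIPL, the sugar-sensing factor known to act on PKLR in liver, was 22.5-fold higher in liver (log2 -4.49, SE 0.389, edgeR adjusted p = 8.02e-08). It read 9.54 CPM in the muscle of Control-AI 2 against 1.18 to 2.49 in the other muscles. VPS37D covers 4004 bp of MLXIPL on the opposite strand. By library size alone VPS37D read 5.13 to 7.72 CPM in muscle, the highest in Control-AI 2. Its part in the MLXIPL value was not tested. TIGAR, which lowers fructose 2,6-bisphosphate, was 4.95-fold higher in muscle, and HIF1A, the oxygen-sensing factor, was higher by a log2 value of 0.585 (SE 0.087). The lactate exporter SLC16A3 was 1.93-fold higher in muscle, ADPGK, a sugar kinase that uses ADP, was higher by a log2 value of 0.58, and the monocarboxylate transporter SLC16A1 1.17-fold higher in liver with an edgeR adjusted p of 0.049. That call was lost without Control-AI 2 (0.0786), with library size alone (0.533), with the likelihood ratio test (0.0529), with no filter (0.0669), with tissue alone in the model (0.0603), and without ART-Normal 1, 2 or 3 or Control-AI 4 (0.0537 to 0.131).

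The genes whose level followed each member most closely over the 12 libraries were genes that also differ between the tissues. PKLR ran with CFB (Pearson r = 0.9995 of log2 CPM), SERPINA10 and DIAPH1, and HK1 with SLC50A1 (r = 0.9983), TMEM30B and CTSZ. PFKL ran with CORO1A (r = 0.9961), C1QC and MAN2B1. PFKM ran with APOBEC2 (r = 0.9938), ZNF398 and CAMK2A, ENO3 with NES (r = 0.9977), GAS2L2 and EMP3, and ALDOA with PLEKHM2 (r = 0.997), ANXA6 and APLN. HK2 had the lowest of these values, with RAB7B (r = 0.9917), COL7A1 and PLEKHO1, and PKM ran with SEC14L1 (r = 0.9985), PIK3C2B and STC2. The libraries form 2 clusters by tissue, so these values describe the order of likeness only.

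The second comparison of the design asks whether conception by assisted reproductive technologies moved the same genes. In muscle no member passed the threshold. The 7 tested there (PKLR was below the filter) had log2 differences, ART-Normal minus Control-AI, from -0.03 (ALDOA) to 0.28 (HK2), the lowest edgeR adjusted p was 0.741, and 0 of the 7 had an unadjusted p under 0.05. Of all 11695 genes tested in muscle 0.00855% passed, a single gene, ANKRD1 (named after its value was seen), with 1075 at an unadjusted p under 0.05. The libraries of the 2 groups overlapped for all 7 members, against 16.1% of all genes whose libraries did not overlap.

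In liver no member passed the threshold either, as no gene did: 0 of 11304 genes, or 0%, with 948 at an unadjusted p under 0.05, and 89 and 56 calls with the likelihood ratio test and DESeq2. The 7 members tested there (HK2 was below the filter) had log2 fold changes from -0.83 to 0.26. PFKM had the largest difference, at 11.3 to 15.9 CPM in the 4 ART-Normal livers and 28.4 and 18.9 in the 2 controls (log2 -0.83, SE 0.216, unadjusted p = 0.00352 and adjusted p = 0.458 by edgeR). Its size depended on which control was kept. Without Control-AI 2 the value was -0.49 (edgeR adjusted p = 0.999), and without Control-AI 4 it was -1.11 (edgeR adjusted p = 0.0166), a fit in which 830 genes passed. HK1 (log2 0.01, SE 0.124) and PKLR (-0.15, SE 0.199) lay within their errors. PFKL (-0.24, SE 0.135), ALDOA (-0.31, SE 0.14) and PKM (-0.16, SE 0.121) had edgeR adjusted p-values of 0.593, 0.589 and 0.661.

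**Figure D5:**
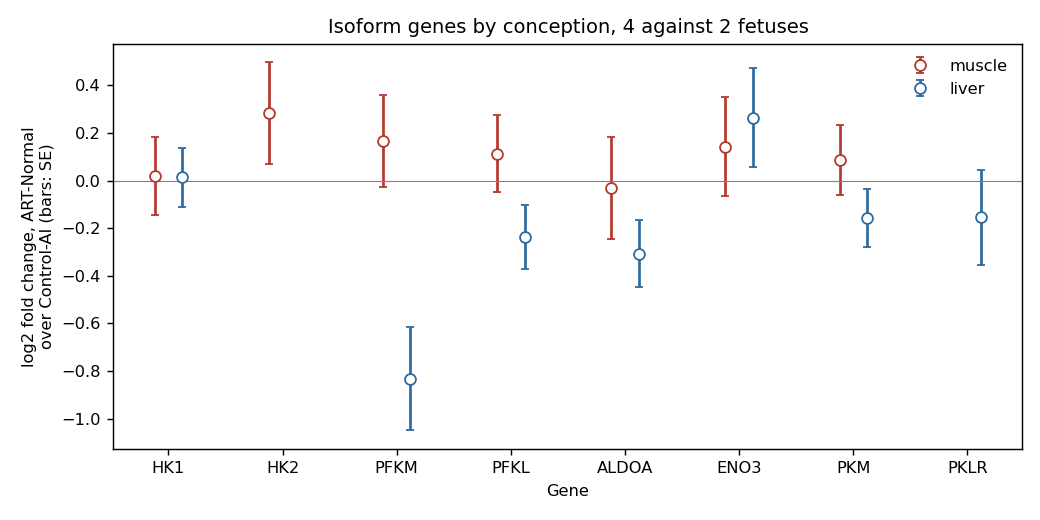
Log2 difference between ART-Normal and Control-AI (y axis, bars are SE, above 0 is higher in ART-Normal) for the members in muscle (red) and liver (blue), 4 against 2 fetuses. HK2 in liver and PKLR in muscle were not tested, no point passed an adjusted p of 0.05, and PFKM in liver lies farthest from 0 at -0.83.

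In liver 5 of the 7 members had no overlap between ART-Normal and control libraries, with PFKM, PFKL, ALDOA and PKM lower and ENO3 higher in ART-Normal, where 18.5% of all genes did not overlap. ENO3, for example, read 7.57 to 9.78 CPM in ART-Normal and 6.62 and 7.30 in the controls (log2 0.26, SE 0.208, edgeR adjusted p = 0.666). This count rested on the scaling. With library size alone it fell to 2 of 7, PFKM and ENO3, where 19.5% of all genes did not overlap. Without Control-AI 2, 5 of 7 again did not overlap, beside 36.7% of all genes, a share that is higher because a single control remained. With 4 against 2 libraries an exact permutation test of a single gene cannot give a p below 0.0667, so none was made.

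Within the fetal livers, the balance of phosphofructokinases can be read without scaling. The log2 ratio of PFKM to PFKL was -3.51 to -2.97 in ART-Normal livers and -3.11 and -2.43 in the controls, so the groups overlapped. That of ENO3 to ENO1 was -5.44 to -4.95 in ART-Normal and -5.68 and -5.62 in the controls, which did not overlap. The ratio of HK2 to HK1 (-5.71 to -4.63 in ART-Normal, -5.86 and -4.455 in the controls) overlapped. So did that of PKLR to PKM (2.77 to 3.30 in ART-Normal, 2.91 and 3.17 in the controls). No test was made on these 4 ratios, as 4 against 2 libraries cannot give a low exact p. No share of non-overlap over other gene pairs was computed. The separation of ENO3 to ENO1 is thus a description and not a result about conception.

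The difference between tissues was itself compared between the conception groups. None of the 12923 genes passed (0%), with 711 at an unadjusted p under 0.05 by edgeR, 98 calls with the likelihood ratio test and 37 with DESeq2. Among the 8 members PFKM had the lowest p: its muscle over liver difference was 0.98 log2 units larger in ART-Normal than in Control-AI (SE 0.308, edgeR unadjusted p = 0.00742, adjusted p = 0.714), and 0.68 without Control-AI 2. A difference between the conception groups in the isoform pattern of the 2 tissues was not detected.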

How the data were processed

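The values were raw counts, deposited by the authors as a table of genes for each tissue with no normalization. The libraries were poly(A), strand-specific and paired-end. The submitters' processing notes name FastQC 0.11.7, HISAT2 2.1.0, Cufflinks, SAMtools, featureCounts, edgeR 3.24.3 and ARS-UCD1.2. The strand setting of the counting is not given in the sources used here. Every listed gene length equals the whole span, so reads were counted over whole spans and no transcript length was at hand. Of the count columns, 12 were matched to samples by fetus and 14 were not used. ART-Normal 4 is in the labels and not in the study's own list of fetuses. Tables of the authors' own comparisons (fold changes and p-values) were not used.

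Counts were tested with edgeR 4.0.16 (R 4.3.3): TMM scaling, a floor of 5 CPM that a gene had to reach in each library of some group, and the quasi-likelihood test with Benjamini-Hochberg adjustment at 0.05. Tissues were compared over 12 libraries with conception as a covariate and no block, and conception was compared within each tissue. The SE of a fold change was its absolute log2 value divided by the square root of the quasi-likelihood F statistic. Levels are CPM with 1 TMM scaling over both tissues. Library size alone scaled the levels of overlapping genes on the opposite strand and the ratios for genes opposite a more abundant gene. The log2 CPM used for likeness had a prior count of 1. Isoform ratios used counts plus 0.5, with an exact sign-change test over fetuses. Liver and muscle of a fetus pair by design. Across genes, the deviations of the 2 tissues from their group means correlated at r = 0.038 to 0.315 in the ART-Normal fetuses. The value was 0.356 for both Control-AI fetuses, which a group of 2 forces to be equal. Alternatives were other scalings, filters, tests (DESeq2 1.42.0), a replicate block and leaving out each fetus. The tests were checked on simulated counts that held no pairing by fetus and no library unlike the rest. That check does not cover the dependence of the calls on single fetuses. Each fetus was taken as a separate animal from its label. The ± values are SD over libraries or fetuses.

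The 8 genes, the lists and the tests were chosen with earlier results of these data known. Named were the 8 genes, 15 other enzymes of the pathway, 11 regulators and transport genes, and for each of the 8 the 3 genes with the highest r over the 12 libraries (unnamed loci left out). Some genes of the pathway are not reported here. The marker lists were hepatocytes, skeletal muscle, erythroid cells, connective tissue (sums of 20660 to 26960 CPM in muscle, 557.7 to 1179 in liver), adipose tissue (3.47 to 7.20 and 2.28 to 3.35), macrophages (64.1 to 96.8 and 356.5 to 521.9) and nerve (48.4 to 137.6 and 5.06 to 11.1).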

Additional observations from a re-analysis of the deposited data

Results flagged for a closer look

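Within groups of 4 libraries, 24 sets of member levels and isoform ratios were screened for a library far from the rest by Dixon's gap test, at a level where chance marks about 1 in 20. A single set was marked. The log2 ratio of PFKM to PFKL in the ART-Normal livers was -2.97 in ART-Normal 2 and -3.51 to -3.43 in the other 3, a gap of 0.838 of the range and just past the critical value. Its PFKM level was 15.9 CPM and its PFKL level 124.0 CPM, and its library was the deepest, at 43339598 counts. No explanation was tested.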

How the results depend on the processing

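All 8 members kept their direction and their call between muscle and liver under every alternative that tested them (PKLR was not tested with at least 10 counts in every library), the fit with fetus as a replicate block included (10937 genes called there against 10507). The block changed no member's call. The replicate numbers shared by conception groups name different fetuses, and a block on them called 90 genes in muscle and 6 in liver, and ALDOA in muscle turned to 0.13. With fetus as a block the interaction called 0. Calls by conception depended on the test: muscle 1, with 120 (likelihood ratio test), 106 (DESeq2) and 0 to 1327 without single fetuses; liver 0, with 89, 56, 6 (library size alone) and 0 to 830; interaction 0, with 98, 37 and 0 to 232. The highest counts came without Control-AI 4. The members not overlapping in liver fell from 5 to 2 with library size alone, an alternative chosen after seeing the data, as was leaving out Control-AI 2, which gave 5.

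Without a replicate block the 4 ratios keep their values of 5.05, 4.76, -12.9 and 4.70. That exact permutation test, which shuffles tissue labels over all 12 libraries, gave p = 0.00216 for each. This is the smallest p it can give. It ignores the pairing of tissues within a fetus, so it is no stronger evidence than the paired test. With a pseudocount of 5 the ratio of PKLR to PKM was -12.0. Leaving out a fetus cannot give a p below 0.0625, by its number of pairs. The differences were then 4.94 to 5.18 (PFKM to PFKL), 4.61 to 4.95 (HK2 to HK1), -13.1 to -12.7 (PKLR to PKM) and 4.62 to 4.795 (ENO3 to ENO1), and with ART-Normal alone 5.26, 4.82, -13.0 and 4.56.

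Signs of values near 0 turned. Between tissues, PFKFB2 was -0.005 (RLE, DESeq2) and -0.001 (tissue alone), and -0.05 to 0.061 without single fetuses. Between conceptions with library size alone PKM was 0.054 and PKLR 0.073 in liver. Without single fetuses, HK1 in muscle ran from -0.13 to 0.19, ALDOA in muscle from -0.158 to 0.093, ENO3 in muscle from -0.019 to 0.261, HK1 in liver from -0.018 to 0.048 and PKLR in liver from -0.318 to 0.041. The cause was not tested. Shares per transcript length were not run, as no lengths were at hand. PKLR had 3 to 8 counts and HKDC1 0 to 1 in each muscle library, which leaves the size of their differences imprecise.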
